A study of Mus musculus with 16 samples.

Results

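The histone lysine methylation enzymes examined here were 42 protein-coding genes that encode lysine methyltransferases, lysine demethylases and close relatives with a SET domain. They were chosen by name as enzymes of this class, and their DNA methylation was read over the whole annotated gene body in the GRCm38 assembly. A gene was tested where every group held at least 20 methylation calls, which left 20068 of 21951 protein-coding genes and 42 of 42 members. A member held between 22 and 6928 calls in a single library.

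The calls came from 16 libraries of mature (MII) mouse oocytes made by post-bisulfite adapter tagging (PBAT), in which adapters are added after bisulfite conversion so that little DNA is lost. All oocytes came from F1 females of the C57BL/6J and CBA/Ca strains, and each library was made from a pool of oocytes, so that no value belongs to a single cell. Follicle culture in vitro (IFC) gave 4 of the libraries, superovulation of prepubertal females (SO) 5, superovulation of adult females (SOA) 4 and natural ovulation of adult females (IV) 3. The labels give an age of 23 days for IFC and SO and of 10 weeks for SOA and IV. IFC oocytes were grown outside the body from preantral follicles of prepubertal females, so that the labelled IFC age includes the time in culture. The IFC medium held recombinant follicle-stimulating hormone, and recombinant human chorionic gonadotropin with epidermal growth factor was added as the ovulatory stimulus. SO and SOA females received equine and then human chorionic gonadotropin, and IV females received no hormones. SOA females received a higher dose than SO females, so age and dose cannot be told apart between these groups.

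The libraries held 5218053 to 23065411 calls. Depth moved with group: all 4 IFC libraries held under 10000000 calls, as did 2 of 5 SO and 3 of 4 SOA libraries, while all 3 IV libraries held more. The part of depth in the differences below was not tested, beyond values from thinned libraries and depth subsets that are given for some results. The oocyte label was checked on tiles of 100 consecutive CpGs, since an oocyte methylome falls into methylated and unmethylated blocks. Tiles over 80% methylation made up 22.5% to 26.2% of a library. Tiles under 20% made up 39.4% to 44.6% in 15 libraries but 32.4% in IV1, where the mean of the unmethylated tiles was 15.0% against 6.65% to 10.7% in the others. IV1 therefore reads high in unmethylated sequence, and the IV values that results rest on are also given without it where it moved them.

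Methyl groups on histone lysines are written by enzymes that mostly carry a SET domain and are erased by amine oxidases (the LSD family) or by oxygenases with a JmjC domain. In growing oocytes these marks and DNA methylation are laid down in relation to each other: DNA methylation follows transcription and trimethylation of H3K36 across gene bodies, whereas methylated H3K4 at promoters keeps the DNA methylation machinery away. A transcribed gene in an oocyte is thus typically methylated along its body and unmethylated at its active start.

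The sequences of 5 transcript starts are shown as examples from these genes. Each is a 300-base promoter window of RefSeq (GRCm38.p6), written 5′ to 3′ on the strand of the gene with every CG in capitals. The starts of Setd7 and Kmt2a are shown because they belong to the only members with lowly methylated bodies.
Setd7 start, chr3:51560774-51561073, minus strand: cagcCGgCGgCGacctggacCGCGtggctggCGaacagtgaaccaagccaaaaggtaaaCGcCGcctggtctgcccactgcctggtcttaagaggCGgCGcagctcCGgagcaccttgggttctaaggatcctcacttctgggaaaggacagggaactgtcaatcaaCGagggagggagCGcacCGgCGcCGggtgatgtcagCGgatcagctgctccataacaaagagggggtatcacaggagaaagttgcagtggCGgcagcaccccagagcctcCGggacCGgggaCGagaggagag
Kmt2a start, chr9:44881240-44881539, minus strand: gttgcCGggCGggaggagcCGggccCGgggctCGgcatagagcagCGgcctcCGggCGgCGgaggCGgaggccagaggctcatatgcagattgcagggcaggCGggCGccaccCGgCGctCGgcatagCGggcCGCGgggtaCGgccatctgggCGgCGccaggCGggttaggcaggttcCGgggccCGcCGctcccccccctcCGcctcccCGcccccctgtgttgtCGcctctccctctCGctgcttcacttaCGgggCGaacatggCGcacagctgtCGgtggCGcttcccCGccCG
RefSeq lists 4 windows for Kdm2b, of which one beside the annotated gene start and one 89.5 kb inside the gene are shown. These windows and the internal start of Jmjd1c were chosen because they were CpG-rich and yet methylated.
Kdm2b annotated start, chr5:122989050-122989349, minus strand: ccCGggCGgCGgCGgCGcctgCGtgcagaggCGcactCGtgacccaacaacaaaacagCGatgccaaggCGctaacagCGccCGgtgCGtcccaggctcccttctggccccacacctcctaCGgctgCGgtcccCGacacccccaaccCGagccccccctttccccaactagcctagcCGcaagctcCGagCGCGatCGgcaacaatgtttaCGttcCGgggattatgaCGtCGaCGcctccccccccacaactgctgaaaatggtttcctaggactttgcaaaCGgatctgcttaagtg
Kdm2b internal start, chr5:122900301-122900600, minus strand: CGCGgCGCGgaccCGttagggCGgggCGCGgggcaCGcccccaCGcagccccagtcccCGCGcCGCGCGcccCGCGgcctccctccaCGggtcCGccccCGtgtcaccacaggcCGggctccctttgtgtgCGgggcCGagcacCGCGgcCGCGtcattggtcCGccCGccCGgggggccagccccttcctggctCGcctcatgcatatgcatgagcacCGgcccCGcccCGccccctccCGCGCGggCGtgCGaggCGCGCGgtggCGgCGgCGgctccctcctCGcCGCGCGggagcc
Jmjd1c internal start, chr10:67126838-67127137, plus strand: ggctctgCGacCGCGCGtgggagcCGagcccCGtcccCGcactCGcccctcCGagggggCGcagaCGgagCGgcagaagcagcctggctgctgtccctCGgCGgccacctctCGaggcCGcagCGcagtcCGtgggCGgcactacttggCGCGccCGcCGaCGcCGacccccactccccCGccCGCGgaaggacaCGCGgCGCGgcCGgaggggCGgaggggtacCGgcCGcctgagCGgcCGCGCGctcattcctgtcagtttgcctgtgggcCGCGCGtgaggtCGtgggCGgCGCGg

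The Setd7 window holds 21 CG dinucleotides and the Kmt2a window 36. Pooled over the libraries with calls, 7 of 300 calls (2.33%) were methylated in the former and 1 of 83 (1.2%) in the latter. The Kmt2a calls came from IFC3, SO3, SO4, SO5, SOA4 and IV3 alone, with 30 of them in SOA4. The window labelled as the annotated start of Kdm2b belongs to a RefSeq start 0.724 kb inside the gene and does not contain the annotated start itself. It holds 28 CG and read methylated in 178 of 182 calls (97.8%). The internal window of Kdm2b holds 49 CG and read methylated in 87 of 92 calls (94.6%). These calls came from IFC1, SO3, SO4, SOA4 and IV1 alone, with 34 of them in IV1. In the Jmjd1c window, with 47 CG, 176 of 216 calls were methylated (81.5%), and pooled by group 55.9% for IFC, 84.1% for SO, 94.3% for SOA and 76.7% for IV. Of the libraries, IFC4 read methylated in 1 of 15 calls and SO3 in 1 of 3, all 8 calls of IV1 were unmethylated, and IFC3, SOA3 and IV3 had no call in it. The motif searched was the dinucleotide CG, which reads the same on both strands and occurs in 94.6% of all 32851 windows. At least as many CG as in these windows were held by 24.8% of all windows for Setd7, 6.23% for Kmt2a, 14.2% and 1.02% for the Kdm2b windows and 1.44% for Jmjd1c. RefSeq windows were matched for 31 of the 42 members (41 windows), with a median of 29 CG against 7 over all windows.

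Most of these genes had highly methylated bodies. The level of a gene was the mean of its 4 group means, and levels under 20% were called low, 20% to 60% intermediate and over 60% high. By these limits 36 members were high (85.7%), 4 intermediate (9.52%) and 2 low (4.76%), while all tested genes divided into 43.2% high, 27.7% intermediate and 29.2% low. The median level was 77.1% for the members and 51.7% for all tested genes. The members were also longer, with a median length of 63.41 kb against 19.92 kb for all tested genes. The part of length in the higher levels was not tested. The low members were Setd7 (4.81%) and Kmt2a (14.2%), and the intermediate ones were Smyd1 (30.2%), Kdm5b (51.5%), Smyd2 (58.3%) and Prdm9 (58.9%). Prdm9 lay just below the upper limit and Suv39h2 (62.7%) just above it, whereas no member lay between Kmt2a and Smyd1 around the lower limit. The sizes of the upper classes depended on the limits, and with 25% and 75% in their place 24 members were high, 16 intermediate and 2 low. Without IV1 the classes by the first limits held 36, 4 and 2 members again.

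**Figure D1:**
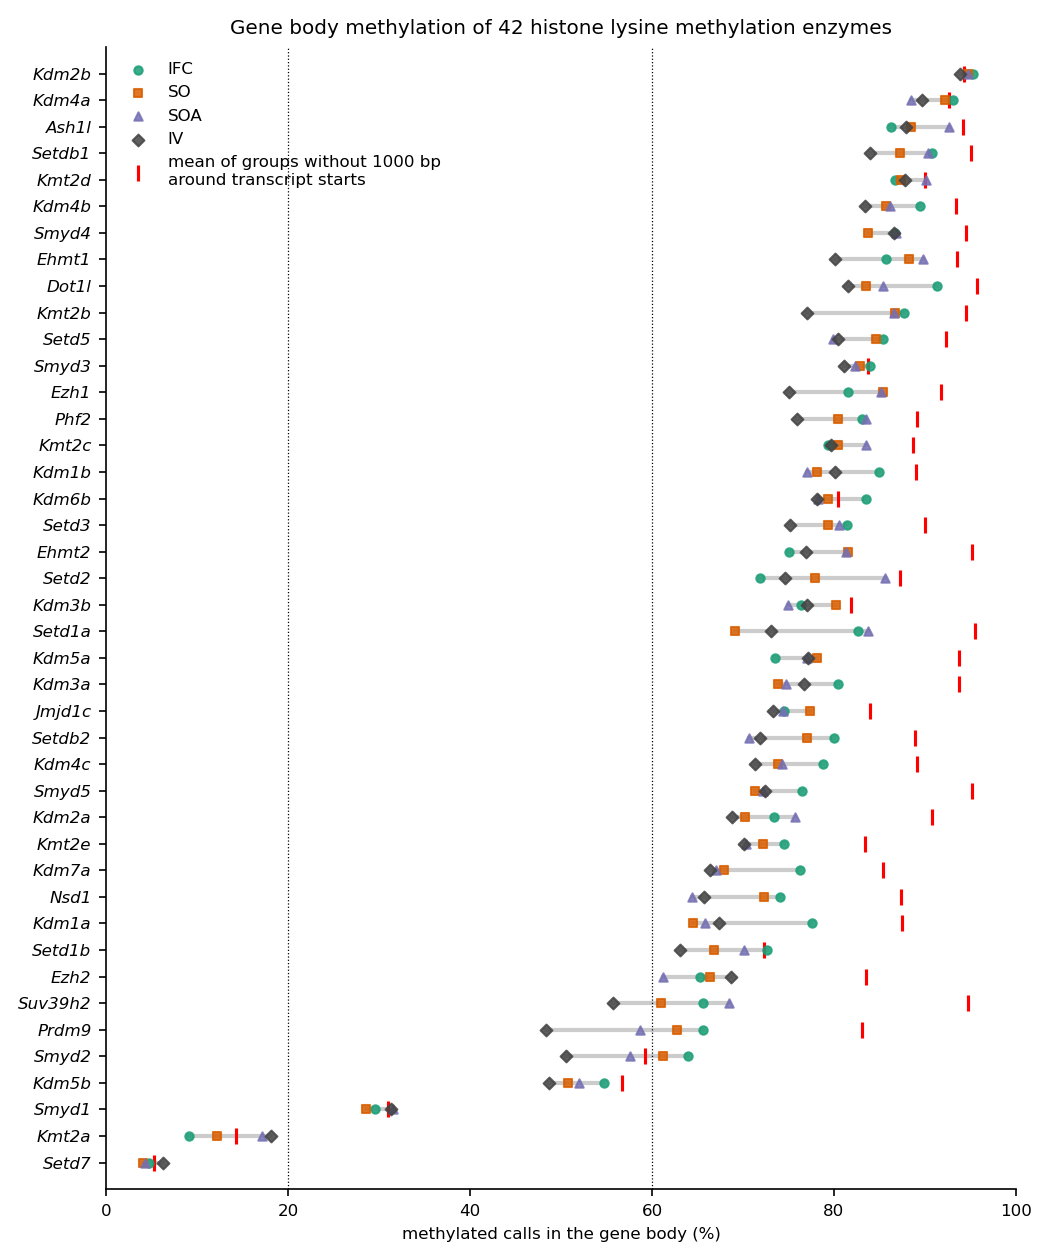
Methylation of the 42 gene bodies (percent of calls, x axis), with 1 line per gene ordered by level and 1 point per group giving the mean of its libraries. By the mean of the group means, Setd7 and Kmt2a lie under 20%, Smyd1, Kdm5b, Smyd2 and Prdm9 between 20% and 60%, and the remaining 36 genes above 60%, up to Kdm2b at 94.6%. Single group points of Smyd2, Prdm9 and Suv39h2 fall on the other side of 60%.

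Among the 8 members assigned to methylation of H3K4, levels spread from 4.81% to 88.0% with a median of 72.6%. Kmt2b, which writes the broad H3K4 trimethylation of growing oocytes, stood at 84.5%, and Kmt2c and Kmt2d, which monomethylate enhancers, at 80.7% and 88.0%. The catalytic subunits of the SET1 complexes, Setd1a and Setd1b, stood at 77.1% and 68.2%. Kmt2e, a relative of this family that binds methylated H3K4, stood at 71.8%. The low Kmt2a and Setd7 and the intermediate Prdm9 complete the class and are described below.

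The 3 members assigned to methylation of H3K36 were all high. Setd2, which trimethylates H3K36 along transcribed genes, stood at 77.5%, and the dimethylating enzymes Nsd1 and Ash1l at 69.1% and 88.8%. The 5 members assigned to methylation of H3K9 were also high. They ranged from Suv39h2 of constitutive heterochromatin (62.7%) to Setdb1, which represses retroelements (88.1%). Between them stood Setdb2 (74.9%) and the partners Ehmt2 (G9a, 78.7%) and Ehmt1 (GLP, 85.9%). Ezh2 and Ezh1, the alternative catalytic subunits of Polycomb repressive complex PRC2 that methylate H3K27, stood at 65.4% and 81.8%. Dot1l, the methyltransferase of H3K79, stood at 85.4%.

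Demethylases had the highest and one of the intermediate bodies. For H3K4, the amine oxidases Kdm1a (LSD1) and Kdm1b (LSD2, required for maternal imprints in oocytes) stood at 68.8% and 80.1%, and Kdm5a at 76.5%, above its paralogue Kdm5b at 51.5%. For H3K36, Kdm2a stood at 72.0% and Kdm2b, which also binds unmethylated CpG islands through a CXXC domain, at 94.6%, the highest of the 42. The 8 members assigned to H3K9 ranged from Kdm7a (69.4%) over Kdm4c (74.5%), Jmjd1c (74.9%), Kdm3a (76.4%), Kdm3b (77.1%), Phf2 (80.8%) and Kdm4b (86.2%) to Kdm4a (90.8%). Kdm6b, which removes H3K27 methylation, stood at 79.8%.

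The remaining 7 members have a SET domain but act mainly or also on other proteins. Smyd3 (82.6%), Smyd4 (86.0%) and Smyd5 (73.1%) were high, while Smyd1 and Smyd2 of the same family were intermediate. Setd3, which methylates actin, stood at 79.1%, and Setd5 at 82.6%. Across the 42 genes the level showed no relation to gene length (Pearson's r = 0.0314 with the log10 length) or to CpG density (r = -0.00134), both computed as a description across genes that share the same libraries.

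Whole-body levels mixed methylated bodies with unmethylated starts. When the 1000 bp on either side of every annotated transcript start were left out, 36 members stood above 80%, with a median of 89.1% over the 42. Setd7 (5.24%) and Kmt2a (14.2%) were low and Smyd1 (30.96%), Kdm5b (56.7%) and Smyd2 (59.2%) intermediate, as they were with the starts. Prdm9 rose to 83.1% and was the only member to leave its class. In profiles of 20 bins of 5% of the gene length, the median of the 36 high members was 10.98% in the first bin, 85.8% in the second and between 92.3% and 95.2% in all later ones, and it was 4.81% in the 2000 bp upstream.

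Setd7, a monomethyltransferase of H3K4 with many non-histone substrates, had the least methylated body. The gene covers 45.56 kb on chromosome 3 (51515319 to 51560879, minus strand) and holds 794 CpGs, or 17.4 per kb against a member median of 10.9. Its body read 5.85%, 7.52%, 1.41% and 4.01% in IFC1 to IFC4 and 2.09%, 3.69%, 3.98%, 5.50% and 4.80% in SO1 to SO5. In SOA1 to SOA4 it read 6.16%, 5.86%, 2.19% and 3.04%, and in IV1 to IV3 it read 9.92%, 4.78% and 3.93%. IV1 gave the highest value, and all 4 groups overlapped. Here and for the genes below, bins were read on calls pooled over all libraries unless a group is named. No bin of the body exceeded 17.1%, and the 10 kb on either side of the gene stayed at or below 16.8%. By group, the highest body bin read 27.03% for IFC and the highest flanking bin 24.79% for SO. Exons (4.63%) and introns (4.84%) had nearly the same level.

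Kmt2a (MLL1), the founding member of the mixed lineage leukaemia family of H3K4 methyltransferases, was low over most of its 77.94 kb on chromosome 9 (44803355 to 44881296, minus strand). IFC1 to IFC4 read 10.3%, 6.70%, 6.59% and 13.1%, and SO1 to SO5 read 13.9%, 16.8%, 8.17%, 14.4% and 7.58%. SOA1 to SOA4 read 16.7%, 21.8%, 16.9% and 13.2%, and IV1 to IV3 read 26.5%, 15.4% and 12.5%. Every SOA library lay above every IFC library, the closest being SOA4 at 13.2% and IFC4 at 13.1%, while the other pairs of groups compared overlapped. The group means were 9.17% ± 3.13 (SD, n = 4) for IFC, 12.2% ± 4.08 (SD, n = 5) for SO, 17.2% ± 3.53 (SD, n = 4) for SOA and 18.2% ± 7.40 (SD, n = 3) for IV, or 13.96% in IV without IV1. IFC minus SOA was -7.99 points, with an adjusted p of 0.436 in the quasi-binomial F test with limma moderation. Along the gene, the bins ranged from 2.91% to 22.0%, and by group they reached 31.96% in IV with IV1 included. Sequence more than 6 kb downstream of the gene end read 86.1% and 93.8%.

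**Figure D2:**
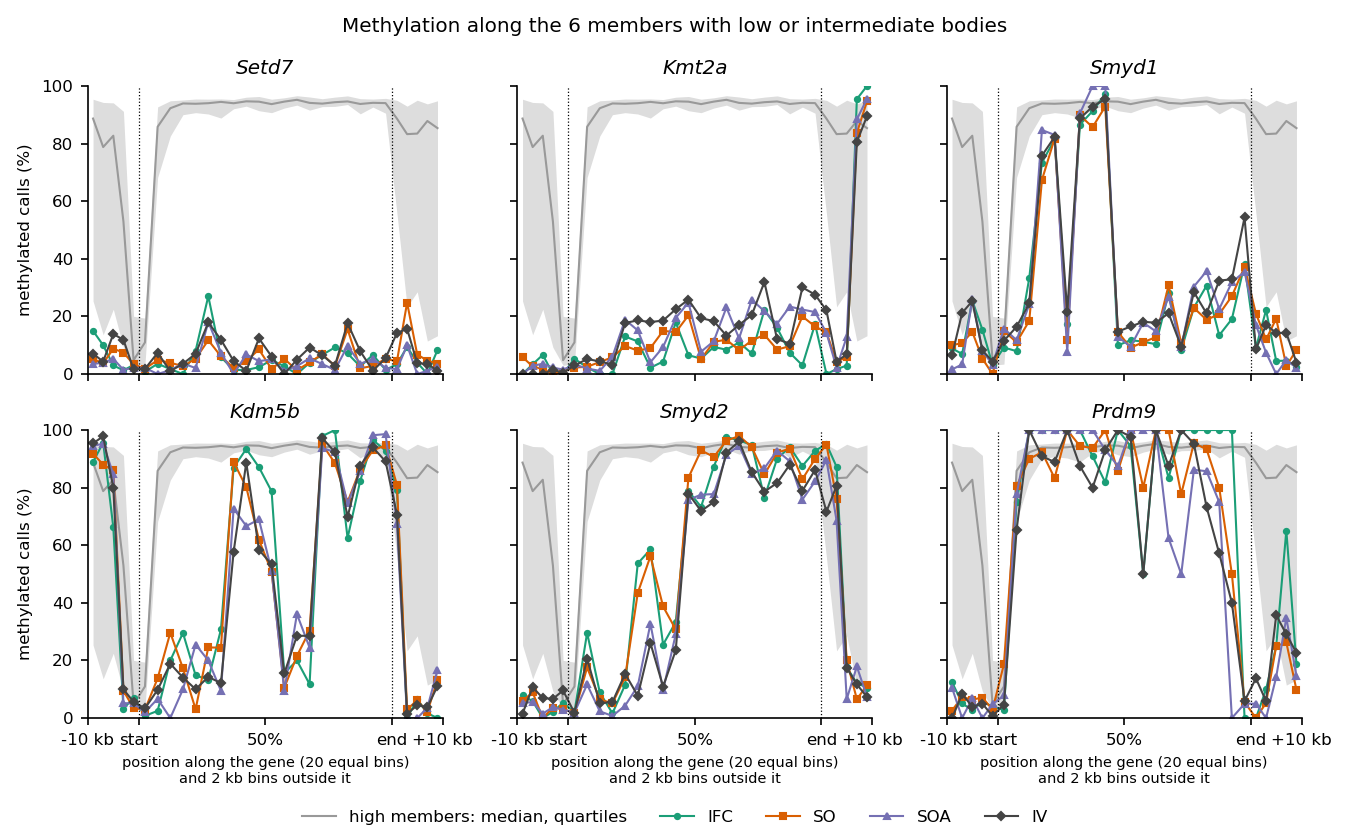
Methylation (percent of calls, y axis) along the 6 low and intermediate genes and the median of the 36 high genes, in 20 bins of 5% of the gene length and 5 flanking bins of 2000 bp on each side, all read in the direction of transcription. Lines give the 4 groups, and in Setd7 and Kmt2a no body bin of a group exceeds 31.96%. Kdm5b and Smyd1 alternate between blocks, and Smyd2 and Prdm9 change level at 1 or both ends.

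Smyd1, a methyltransferase of striated muscle, was intermediate, with 2 methylated blocks in an otherwise lowly methylated gene of 108.3 kb on chromosome 6 (71213940 to 71322233, minus strand). The 5 bins of these blocks stood between 74.4% and 96.1% and the other 15 between 9.71% and 41.96%. The RefSeq promoter window matched for Smyd1 (chr6:71262232-71262531) lies inside the annotated gene and downstream of both blocks, so the blocks precede that transcript start. From its bin to the gene end the bins read 9.71% to 41.96%. The body read 28.7%, 29.7%, 31.9% and 27.9% in IFC1 to IFC4 and 31.2%, 29.1%, 26.3%, 29.7% and 26.4% in SO1 to SO5. It read 37.0%, 28.7%, 31.5% and 28.9% in SOA1 to SOA4 and 36.3%, 27.99% and 29.8% in IV1 to IV3. The groups overlapped, and the largest gap between group means was 2.98 points.

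Kdm5b, a demethylase of trimethylated H3K4, alternated between unmethylated and methylated blocks along 75.11 kb of chromosome 1 (134560171 to 134635285, plus strand). The first 7 bins read 2.63% to 18.5%, the next 4 read 55.5% to 82.6%, 3 bins read 12.4% to 26.9%, and the last 6 read 70.7% to 95.8%. Over the body, IFC1 to IFC4 read 59.2%, 37.8%, 61.7% and 60.3%, and SO1 to SO5 read 58.9%, 50.8%, 46.8%, 47.1% and 50.2%. SOA1 to SOA4 read 47.9%, 61.8%, 50.4% and 47.9%, and IV1 to IV3 read 55.1%, 47.8% and 43.0%. IFC2, with 196 calls, was the lowest of all libraries, and the groups overlapped. Exons (62.2%) read higher than introns (42.9%).

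Smyd2, a methyltransferase of histones and of proteins such as p53, was unmethylated in its first part and methylated in its last. Its 41.87 kb on chromosome 1 (189880492 to 189922363, minus strand) hold 19.8 CpGs per kb, the sixth highest density of the 42. The first 5 bins read 1.85% to 18.3%, the next 4 read 21.7% to 44.4%, and the last 11 read 79.2% to 96.3%. Over the body, IFC1 to IFC4 read 67.8%, 59.4%, 65.5% and 63.1%, and SO1 to SO5 read 59.2%, 65.6%, 62.6%, 59.2% and 59.6%. SOA1 to SOA4 read 63.3%, 57.8%, 63.1% and 46.2%, and IV1 to IV3 read 49.7%, 53.03% and 48.8%. All 3 IV libraries lay below every IFC and SO library, and of the SOA libraries only SOA4 fell below the IV values. IV was not compared with IFC or SO over all genes.

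Prdm9, which trimethylates H3K4 at meiotic recombination hotspots in early meiotic prophase, was methylated inside and unmethylated at both ends. Its body of 21.28 kb on chromosome 17 (15543079 to 15564354, minus strand) holds only 176 CpGs. The first bin read 9.48% and the last 4.88%, while the 18 between them read 58.8% to 100%. Libraries varied widely on 22 to 200 calls each, and IFC4 at 32.4% of 71 calls (95% Wilson interval 22.7% to 43.9%, which like all such intervals here covers counting error only) stood far from IFC2 at 96% of 25 calls (80.5% to 99.3%). IFC1 and IFC3 read 57.8% and 76.2%, and SO1 to SO5 read 65.1%, 67.7%, 57.1%, 63.6% and 60.2%. The group means were 65.6% ± 27.1 (SD, n = 4) for IFC, 62.7% ± 4.18 (SD, n = 5) for SO, 58.7% ± 18.1 (SD, n = 4) for SOA and 48.4% ± 7.72 (SD, n = 3) for IV, or 43.95% in IV without IV1, and the ranges of IFC and SOA covered most of the other values.

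The groups were then compared as IFC vs SO, for follicle culture at the same labelled age, and SO vs SOA, for the age of the stimulated females. SOA vs IV, for stimulation in adults, and IFC vs SOA were compared as well. IFC and SO also differed in the hormones given, and culture and hormones cannot be told apart between them. Each gene was tested with a quasi-binomial logistic model with no term but the group, in which all 16 libraries shared 1 fit, the dispersion between libraries was moderated over all genes with limma, and p-values were adjusted by Benjamini-Hochberg over all 20068 genes. A gene was called at an adjusted p under 0.05. The labels do not say that pools came from separate females, so these p-values measure the spread between pools.

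Few whole gene bodies were called between groups, among the enzymes as among all genes. Between IFC and SO 0 members were called, where 0.269% of all genes were, and 5 members had an unadjusted p under 0.05 (7.31% of all genes). Between SO and SOA 1 member was called, where 1.47% of all genes were, and 4 had an unadjusted p under 0.05 (9.82%). Between SOA and IV 0 members were called and 0% of all genes, with 4 members at an unadjusted p under 0.05 (8.32%). Between IFC and SOA 0 members were called, where 2.39% of all genes were, and 8 had an unadjusted p under 0.05 (12.4%). With limma on the percentages of the libraries 0 members were called in each of the 4 comparisons, where 0.214%, 1.01%, 0% and 2.48% of all genes were, and without moderation of the dispersion also 0, where 0.13%, 0.907%, 0% and 1.5% were. When every call was taken as independent in a plain logistic likelihood-ratio test, 14, 15, 14 and 18 members were called in this order, where 19.3%, 23.9%, 24.7% and 28.3% of all genes were.

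Members whose groups did not overlap in any library were counted beside the share of all genes. Between IFC and SO there were 2, Kdm1a and Kdm7a, where 2.87% of all genes did not overlap. Between SO and SOA there were 0 (4.02% of all genes). Between SOA and IV there were 3, Setd2, Ezh1 and Ehmt1, all higher in SOA (6.5%), and between IFC and SOA there was 1, Kmt2a, lower in IFC (7.36%). Among 42 genes these counts are too small to set the members apart from all genes. Without regard to a test, 30 of 42 members were higher in IFC than in SO, with a median difference of 2.19 points against 0.553 points over all genes. The first-named group was higher in 19 members for SO vs SOA, in 29 for SOA vs IV and in 27 for IFC vs SOA. The median differences of the members were -0.454, 1.75 and 1.32 points in this order, against -0.000879, 0.713 and 0.548 points over all genes. The share of all genes higher in the first-named group was not counted.

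Setd1a was the member called between SO and SOA. Its body read 66.01%, 63.3%, 75.6%, 63.4% and 77.1% in SO1 to SO5 and 86.7%, 84.6%, 76.1% and 87.5% in SOA1 to SOA4. In IFC1 to IFC4 it read 87.2%, 87.9%, 82.4% and 73.0%, and in IV1 to IV3 it read 76.9%, 72.9% and 69.4%. SO held the 3 lowest libraries, but SO5 lay above SOA3, so that these groups overlapped. SO minus SOA was -14.6 ± 3.98 points (SE), with an adjusted p of 0.0215 in the quasi-binomial F test with limma moderation and of 0.117 with limma on percentages. IFC minus SO was 13.5 points (quasi-binomial adjusted p = 0.299) and SOA minus IV 10.6 points (quasi-binomial adjusted p = 0.559), or 12.6 points without IV1.

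At Setd1a the group means of SO and SOA stood apart both in the share of calls near transcript starts and in the methylation there. In both, the libraries of these groups overlapped, and neither was tested. Calls within 1000 bp of a start made up 32.4% ± 6.45 (SD, n = 5) of those of the gene for SO but 19.7% ± 5.5 (SD, n = 4) for SOA, 24.5% ± 8.9 (SD, n = 4) for IFC and 29.0% ± 2.34 (SD, n = 3) for IV. Methylation within 1000 bp of a start was 15.8% ± 9.77 in the 5 SO and 34.1% ± 18.3 in the 4 SOA libraries (SD), with means of 30.8% for IFC and 26.6% for IV. Their separate parts in the difference were not tested. Away from the starts the body read 95.2% ± 1.68 in the 5 SO libraries and 95.9% ± 0.964 in the 4 SOA libraries (SD), a difference of -0.633 points (quasi-binomial adjusted p = 0.972 with limma moderation). Without SOA4, the deepest library, the difference with the starts was -13.4 points and the adjusted p of the same test was 0.337. It was also lost without SO2, SO4 or SOA1, with adjusted p between 0.0507 and 0.0963. Among the 2 SO and 3 SOA libraries under 10000000 calls the difference was -17.8 points, with an adjusted p of 0.288 in the same test. Among the deeper libraries SOA4 was alone against 3 SO libraries and differed from them by -15.4 points, which is given as a value with no test.

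Kdm1a and Kdm7a were higher in IFC than in SO. Kdm1a read 88.2%, 81.7%, 70.5% and 69.7% in IFC1 to IFC4 and 59.7%, 65.8%, 65.8%, 62.8% and 68.3% in SO1 to SO5. Kdm7a, a demethylase of H3K9 and H3K27, read 74.0%, 71.8%, 82.7% and 76.6% in IFC1 to IFC4 and 64.1%, 68.5%, 70.8%, 67.6% and 68.8% in SO1 to SO5. In SOA1 to SOA4 Kdm1a read 60.6%, 50%, 75.3% and 77.5% and Kdm7a 73.6%, 56.1%, 73.55% and 64.9%. In IV1 to IV3 Kdm1a read 62.8%, 66.2% and 73.03% and Kdm7a 61.15%, 69.9% and 68.1%. For both genes the lowest IFC library lay just above the highest SO library. The differences were 13.1 ± 4.72 points (SE) for Kdm1a and 8.33 ± 2.60 points (SE) for Kdm7a, with adjusted p of 0.569 and 0.668 in the quasi-binomial F test with limma moderation. Away from transcript starts they were -0.388 and 0.452 points, and for Kdm1a the share of calls near starts was 33.0% ± 8.55 in the 4 IFC libraries and 45% ± 2.82 in the 5 SO libraries (SD). Methylation near the starts of Kdm1a was 58.3% ± 13.8 in the former and 35.1% ± 8.20 in the latter (SD). Kdm1a also differed by 11.7 points between IFC and SOA (quasi-binomial adjusted p = 0.614 with limma moderation), where the groups overlapped. This value was 6.40 points without SOA2 and 2.60 points away from starts.

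Setd2 and Nsd1, both writers of H3K36 methylation, had the largest differences after Setd1a between SO and SOA, in opposite directions. Setd2 read 90.04%, 65.8%, 72.3% and 59.4% in IFC1 to IFC4, 75%, 78.4%, 82.1%, 74.8% and 79.4% in SO1 to SO5, 89.1%, 88%, 84.9% and 80.2% in SOA1 to SOA4 and 71.2%, 76.8% and 76.0% in IV1 to IV3. The IFC libraries were spread over most of the range, and every SOA library lay above every IV library. Setd2 differed by -7.63 points between SO and SOA, by 10.9 points between SOA and IV and by -13.6 points between IFC and SOA (quasi-binomial adjusted p with limma moderation of 0.729, 0.576 and 0.238). Nsd1 read 76.6%, 61.8%, 74.4% and 83.5% in IFC1 to IFC4, 75.8%, 68.1%, 73.5%, 72.4% and 71.6% in SO1 to SO5, 54.5%, 66.8%, 75.5% and 60.6% in SOA1 to SOA4 and 65.4%, 70.2% and 61.6% in IV1 to IV3. Its groups overlapped, and the differences of 7.95 points for SO vs SOA and 9.74 points for IFC vs SOA had adjusted p of 0.125 and 0.112 in the same test.

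These differences were small away from transcript starts. There Setd2 differed by -0.636 points between SO and SOA, by 3.28 points between SOA and IV and by -0.0171 points between IFC and SOA, and Nsd1 by 0.681 points between SO and SOA and by 2.83 points between IFC and SOA. Near starts Setd2 read 60.3% ± 12.8 in the 5 SO and 81.6% ± 13.4 in the 4 SOA libraries (SD), and Nsd1 26.6% ± 10.6 and 15.6% ± 8.50. With starts included, single libraries moved the values. Setd2 between IFC and SOA differed by -9.49 points without IFC4 and by -19.7 points without IFC1, and in the latter case it was called (quasi-binomial adjusted p = 0.0152). Nsd1 between IFC and SOA differed by 6.46 points without SOA1 and by 13.8 points without IFC2, and in the latter case it was called (quasi-binomial adjusted p = 0.0352). Nsd1 between SO and SOA differed by 4.67 points without SOA1. The differences moved further when positions with fewer than 3 calls were left out. They were then 36.05 points for Nsd1 between SO and SOA, 26.35 points for Nsd1 between IFC and SOA and -27.5 points for Setd2 between IFC and SOA (quasi-binomial adjusted p of 0.277, 0.973 and 0.304 with limma moderation), while Setd2 between SO and SOA came to -2.93 points. Without IV1 the difference of Setd2 between SOA and IV was 9.17 points.

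Between SOA and IV, 5 members differed by over 10 points, and all were higher in SOA. Beside Setd2 and Setd1a these were Suv39h2 (12.8 points), Prdm9 (10.3 points) and Ezh1 (10.1 points). The share of all genes that differed by over 10 points was not counted. Suv39h2 read 67.7%, 57.7%, 95.8% and 52.6% in SOA1 to SOA4 and 48.2%, 51.4% and 67.5% in IV1 to IV3, so the groups overlapped. In IFC1 to IFC4 it read 65.6%, 75%, 71.8% and 50%, and in SO1 to SO5 57.9%, 83.3%, 52.2%, 52.9% and 58.7%. The high SOA3 value rested on 24 calls (95% Wilson interval 79.8% to 99.3%). Without SOA3 the difference at Suv39h2 was 3.67 points, without IV3 18.7 points and without IV1 9.03 points. Away from starts it was 1.01 points (94.06% vs 93.05%), beside 2.498 points at Ezh1, 1.86 at Ehmt1 and -1.21 at Prdm9. Ezh1 read 93.1%, 82.4%, 83.6% and 81.7% in SOA1 to SOA4 and 73.3%, 76.4% and 75.5% in IV1 to IV3, and Ehmt1 read 91.6%, 90.7%, 93.1% and 83.7% against 77.0%, 81.25% and 82.1%. Prdm9 read 79.5%, 41.7%, 68.2% and 45.5% in SOA1 to SOA4 and 57.2%, 44.8% and 43.1% in IV1 to IV3, and these groups overlapped. Its difference was 3.404 points without SOA1 and 16.01 points without SOA2. Without IV1 the differences were 14.8 points at Prdm9, 9.24 at Ezh1 and 8.08 at Ehmt1. The adjusted p of these genes lay between 0.559 and 0.948 in the quasi-binomial F test with limma moderation.

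Differences of whole bodies shrank for the set when transcript starts were left out. The median absolute difference fell from 2.97 to 1.18 points for IFC vs SO, from 2.82 to 1.47 for SO vs SOA, from 2.84 to 1.56 for SOA vs IV and from 4.12 to 1.94 for IFC vs SOA. Over all genes it was 2.86, 3.09, 3.44 and 3.55 points with the starts in this order. No value away from starts is given for all genes, so the fall is not set apart as a trait of the members. Away from starts 0 members differed by over 10 points in any comparison, and the largest differences were 7.65 points at Ezh2, 6.08 at Smyd2, 5.54 at Setd1b and 8.88 at Prdm9 in this order. In that setting 1 member was called, Smyd2 between IFC and SOA (64.7% vs 56.7%, a difference of 8.02 points, quasi-binomial adjusted p = 0.0277 with limma moderation), where 710 of 18380 genes were called (3.86%). In the other 3 comparisons 0 members were called, where 0.604% of all genes were between IFC and SO, 2.73% between SO and SOA and 0% between SOA and IV. With the starts included, Smyd2 differed by 6.35 points in this comparison and had an adjusted p of 0.119 in the same test. Both values rested on SOA4. Without it the difference was 4.40 points away from starts (quasi-binomial adjusted p = 0.789) and 2.54 points with them (quasi-binomial adjusted p = 0.918). The call away from starts was also lost without IFC1, IFC2 or IFC3, with adjusted p of 0.148, 0.0554 and 0.0648 in the same test. Of the other largest differences away from starts, that of Smyd2 between SO and SOA was 2.45 points without SOA4 and 8.66 points without SOA1, where it was called (quasi-binomial adjusted p = 0.0195), and that of Setd1b between SOA and IV was 0.830 points without IV2 and 8.70 points without IV3.

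Over the whole set, the pooled methylation of the 42 bodies was 74.4% ± 3.195 (SD, n = 4) for IFC, 73.6% ± 1.22 (SD, n = 5) for SO, 73.9% ± 2.20 (SD, n = 4) for SOA and 71.3% ± 0.183 (SD, n = 3) for IV. IFC1 was highest at 78.5%, and SOA4 (70.8%) and IFC4 (70.8%) were lowest, so IV did not lie outside the other groups. Without IV1 the mean for IV was also 71.3%. As a mean over genes the set read 74.6%, 72.6%, 73.2% and 70.3% in this order of groups, against 48.0%, 47.3%, 47.5% and 46.2% for all tested genes.

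**Figure D3:**
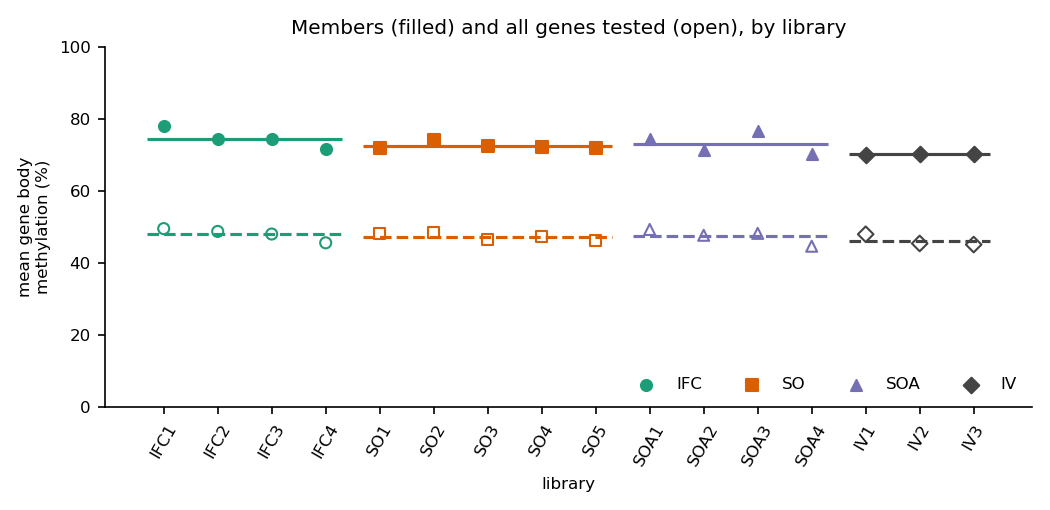
Mean gene body methylation over the 42 members (filled) in each of the 16 libraries (percent, y axis), beside the mean over all tested genes (open). Lines give the group means. The enzymes lie between 70.0% and 77.9% in every library and all genes between 44.7% and 49.6%. The 3 IV libraries sit between 70.0% and 70.4%.

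Tiles placed the differences within the genes. Of 359 tiles with their midpoint in a member, 67.7% were over 80%, 18.4% between 20% and 80% and 13.9% under 20%, against 23.6%, 35.2% and 41.1% of all tiles. Of the 358 tested by the same quasi-binomial F test with limma moderation, 0 were called between IFC and SO (0.254% of all tiles), 2 between SO and SOA (1.29%), 0 between SOA and IV (0% of all tiles) and 3 between IFC and SOA (2.38%). At an unadjusted p under 0.05 these counts were 15, 32, 21 and 27, where the shares of all tiles were 7.21%, 10.9%, 9.4% and 12.7%. With limma on percentages 0 member tiles were called in each of the comparisons. A plain logistic likelihood-ratio test, with calls taken as independent, called 11, 29, 15 and 25 member tiles in this order, where 4.38%, 8.81%, 6.38% and 11% of all tiles were called. The tiles described below were picked because the quasi-binomial test called them. The share of all tiles whose libraries separate as theirs do was not counted.

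The tile in Smyd2 was called between SO and SOA and between IFC and SOA. It covers chr1:189906580-189912470, is centred 12.8 kb inside the gene, and lies where the profile turned from unmethylated to methylated sequence. IFC1 to IFC4 read 46.3%, 57.1%, 48.1% and 41.9% and SO1 to SO5 read 84.6%, 55.2%, 51.2%, 33.0% and 35.5%. SOA1 to SOA4 read 24.2%, 23.8%, 26.9% and 12.9% and IV1 to IV3 read 15.4%, 13.2% and 12.9%. The highest of the 7 adult libraries (26.9%) lay below the lowest of the 9 prepubertal libraries (33.0%). The group means were 48.4% ± 6.39 (SD, n = 4), 51.9% ± 20.7 (SD, n = 5), 22.0% ± 6.20 (SD, n = 4) and 13.8% ± 1.34 (SD, n = 3). The difference was 29.9 points for SO vs SOA and 26.4 points for IFC vs SOA (quasi-binomial adjusted p with limma moderation of 0.013 and 0.0087). Between SOA and IV it was 8.13 points, the adjusted p of this test was 0.793, and the groups overlapped. SO1 rested on 13 calls (95% Wilson interval 57.8% to 95.7%), and without SOA4 the differences were 26.9 and 23.4 points with adjusted p of 0.495 and 0.287 in the same test.

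**Figure D4:**
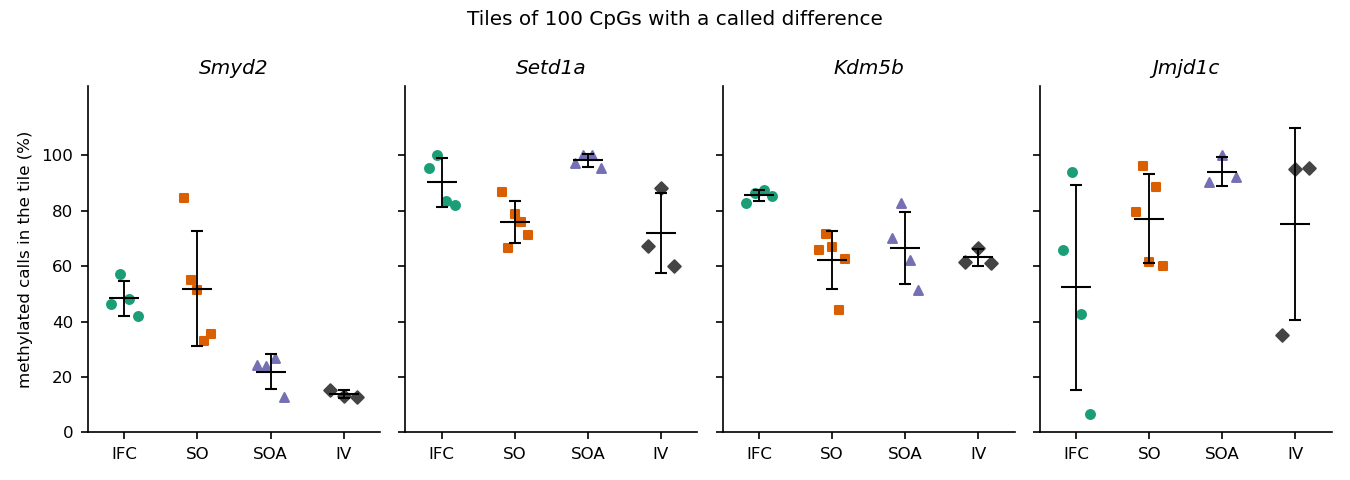
Methylation (percent of calls) of the 4 called tiles in every library, with group means. In Smyd2 all adult libraries lie at or below 26.9% and all prepubertal ones at or above 33.0%, in Kdm5b the 4 IFC libraries lie above all others, in Setd1a SOA lies above SO and IV, and in Jmjd1c IFC4 and IV1 lie far below their groups.

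The tile in Kdm5b (chr1:134591660-134601715, 36.5 kb from the gene start) was called between IFC and SOA. IFC1 to IFC4 read 82.9%, 86.4%, 87.5% and 85.4%, SO1 to SO5 read 65.8%, 71.4%, 67.0%, 44.3% and 62.5%, SOA1 to SOA4 read 70.0%, 82.6%, 62.3% and 51.4% and IV1 to IV3 read 61.5%, 66.7% and 61.25%. The 4 IFC libraries were the highest of the 16, the lowest of them (82.9%) lying just above SOA2 (82.6%). IFC minus SOA was 18.96 points (quasi-binomial adjusted p = 0.0185 with limma moderation) and IFC minus SO 23.3 points (adjusted p = 0.056 in the same test). Without SOA4 the difference from SOA was 13.9 points and the adjusted p of this test 0.352, and without IFC3 or IFC4 it was 0.075 or 0.0576.

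The tile of Setd1a (chr7:127777580-127783793) was called between SO and SOA and overlaps the CpG-dense region at the gene start in part. SO1 to SO5 read 86.7%, 66.7%, 78.7%, 76% and 71.1%, and SOA1 to SOA4 read 97.2%, 100%, 100% and 95.5%. IFC1 to IFC4 read 95.5%, 100%, 83.3% and 82.1%, and IV1 to IV3 read 67.4%, 88.1% and 60.2%. SOA lay above SO and IV without overlap, on 123 calls in all 4 SOA libraries. SO minus SOA was -22.35 points (quasi-binomial adjusted p = 0.0134 with limma moderation), which rose to 0.0593 without SOA1 and 0.151 without SOA4. SOA minus IV was 26.3 points and had an adjusted p of 0.197 in the same test, and the mean for IV without IV1 was 74.17%.

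The tile of Jmjd1c (chr10:67126263-67127181) spans the internal start printed above, 30.6 kb inside the gene. IFC1 to IFC4 read 65.7%, 94.1%, 42.9% and 6.82%, SO1 to SO5 read 79.5%, 96.2%, 61.5%, 88.5% and 60%, SOA1, SOA2 and SOA4 read 90.4%, 100% and 92%, and IV1 to IV3 read 35.3%, 95.1% and 95.2%. SOA3 had no call in this tile and was left out of its fit. IFC4 was by far the lowest, with 3 methylated of 44 calls (95% Wilson interval 2.35% to 18.2%), and IV1 was far below the other IV libraries, whose mean was 95.16%. IFC minus SOA was -41.8 points (quasi-binomial adjusted p = 0.0145 with limma moderation), but IFC and SOA overlapped, and without IFC4 the difference was -26.6 points with an adjusted p of 0.377. It was 0.0561 without SOA2 and 0.0588 without SOA4.

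CpG-dense sequence, taken as merged windows of 20 CpGs within 400 bp, separated starts from bodies. Of 85 such regions in the members, 76 could be tested. At 38 annotated gene starts, 36 regions stayed under 20% of the pooled calls in all 4 groups. The others were Kdm2b (chr5:122988956-122989635, 95.35% to 100%) and Kmt2b (chr7:30588030-30590319), where the pooled calls of the groups read 18.55%, 27.1%, 25.4% and 13.4% from IFC to IV. In mean percentages of libraries, IFC minus SOA was -20.3 points at the Ehmt2 start (quasi-binomial adjusted p = 0.381 with limma moderation). Of the 37 tested regions that overlapped a body away from the gene start, by contrast, 30 exceeded 60% in all groups, at 87.5% to 100%. All of the 37 lay wholly inside the gene except the region across the 3′ end of Kmt2d. Over all 24863 tested regions of the genome, 69.2% were under 20% and 16.7% over 60% in all groups.

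The 30 methylated intragenic regions lay in 14 genes. Kdm2b and Kmt2d held 5 each, Kdm6b 4, Ehmt2 and Setd1b 3 each, Phf2 2, and Ash1l, Dot1l, Kdm1b, Kdm2a, Kdm4a, Kmt2b, Setd1a and Setd2 1 each. Those of Kdm2b lay between 1.77 and 109.3 kb from its annotated start, and one of them covers its printed internal start. Unmethylated regions lay in Kdm4c, 9.58 kb from its annotated start (at most 3.38% of the pooled calls of a group), and in Smyd1 (2.70% to 7.59%). The Kdm4c region (chr4:74251399-74252754) contains a RefSeq promoter window (chr4:74251629-74251928) with 28 CG. The RefSeq window at the annotated start of Kdm4c holds 0 CG. The Kdm4c region is thus inside the annotated gene but at a listed transcript start. The region across the 3′ end of Kmt2d (chr15:98830636-98831874), centred beyond the last base of the gene, was also unmethylated (3.125% to 7.39%, the latter in IV, which read 3.80% without IV1).

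**Figure D5:**
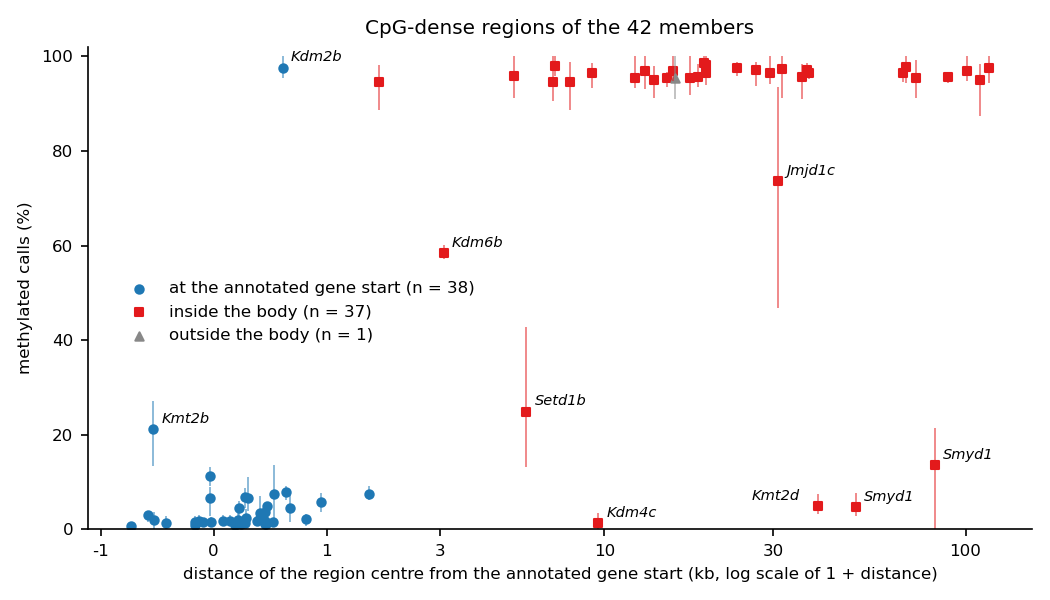
Methylation of the 76 tested CpG-dense regions (percent of calls, y axis) against the distance of their centre from the annotated gene start (kb, log scale of 1 plus the distance), with points for the mean of the 4 groups and lines for their range. Of the regions at annotated starts only those of Kdm2b and Kmt2b exceed 20% in any group, while 30 of 37 regions drawn as inside the body, of which that of Kmt2d crosses the gene end, lie at 87.5% or more in every group.

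The remaining 4 intragenic regions lay between these limits. The region of Kdm6b (chr11:69409020-69412131) read 57.2% to 60.1% in the 4 groups. That of Jmjd1c (chr10:67126355-67127838, which contains the printed window) read 46.7%, 82.1%, 93.6% and 72.3% from IFC to IV on pooled calls, and a short region of Setd1b (chr5:123147818-123148183) read 42.9%, 23.5%, 13.2% and 19.7% in this order. Its IV value rested on IV1, where 8 of 11 calls were methylated, and the pooled calls of IV2 and IV3 read 10.8%. In Smyd1 the region read up to 21.4%. At Jmjd1c single libraries ran from 10% in IFC4 and 29.3% in IV1 to 97.4% in IV2, beside SOA2 and SOA3 at 100%, the last on 5 calls. IFC minus SOA in mean percentages was -44.3 points (quasi-binomial adjusted p = 0.506 with limma moderation), and the pooled calls of IV without IV1 read 97.0%.

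No CpG-dense region of a member was called in any comparison. Between IFC and SO 0.00804% of all regions were called, between SO and SOA 0.0201%, between SOA and IV 0%, and between IFC and SOA 0.0402%. At an unadjusted p under 0.05 the members had 3, 7, 6 and 3 regions, where 7.24%, 8.26%, 8.42% and 7.62% of all regions passed in the quasi-binomial F test with limma moderation, and limma on percentages also called 0 in each.

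Promoters, taken as the 1000 bp upstream of the annotated gene start, were mostly unmethylated in these genes, as in all genes. Of 37 members with at least 20 calls there in every group, 32 (86.5%) stayed under 20% in all groups, against 83.8% of 12179 genes. Of the 37, Kdm2b had the only promoter over 60% (92.2%, 97.5%, 96.7% and 85.5% of pooled calls from IFC to IV). Jmjd1c read 22.6%, 42.9%, 48% and 37.0% and Kdm1b 15.6%, 21.8%, 31.1% and 22.7%. Nsd1 reached 21.8% and Kdm4b 22.0% in SO alone. The promoters of Smyd5, Setdb1, Kdm1a, Kdm4c and Kdm6b held fewer calls in at least 1 group and were not counted, and among them Smyd5 read 30.8%, 33.3%, 38.9% and 21.05% from IFC to IV, with 18 calls in SOA. At the lowly methylated Setd7 the promoter read 1.27% to 3.09%, and at the intermediate Smyd2 1.98% to 4.40%.

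Other genes of histone lysine methylation gave a broader picture of the machinery. Among 52 subunits, partners and further enzymes, 36 bodies were high, 15 intermediate and 1 low, with a median of 69.8%. The low one was Pagr1a (2.86%), a subunit of the MLL3 and MLL4 complexes, and the least methylated intermediate ones were Trim28 (26.6%), the corepressor that recruits Setdb1, and Setd6 (30.1%). The PRC2 subunits Eed (48.6%) and Suz12 (71.0%) fell on either side of the limit. Suv39h1, the relative of the high member Suv39h2, was intermediate at 59.6%. In all 4 comparisons 0 of the 52 were called by the quasi-binomial F test with limma moderation, where 0.269%, 1.47%, 0% and 2.39% of all genes were. At an unadjusted p under 0.05 there were 0, 3, 3 and 5 of them, where 7.31%, 9.82%, 8.32% and 12.4% of all genes passed.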

How the data were processed

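The 42 genes, the partner list and the tests were chosen with earlier results of these data known. PBAT libraries of pooled MII oocytes were, per the submitters' processing notes, trimmed with Trim Galore 0.4.4 and cutadapt 1.9.1 and mapped to GRCm38 with Bismark 0.19.0, and duplicates were removed. The deposited tables hold for each covered CpG position a percent and the underlying counts, one of methylated and one of unmethylated calls, not normalized by the authors. The labels' extraction protocol speaks of a blastocyst, although the cell type is given as oocytes.

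Here the counts of all positions in a feature were pooled per library, and the percentage of methylated calls was calculated from them. No position was removed, and all libraries were used. Features were GENCODE gene bodies, tiles of 100 reference CpGs, CpG-dense regions (20 CpGs within 400 bp, merged) and 1000 bp promoters, each with at least 20 calls in every group. The study states no test for gene bodies, and it used logistic regression for tiles. The test here was a quasi-binomial logistic F test with group as the only term, with the dispersion moderated by limma 3.58.1 in R 4.3.3 and not allowed under 1, and Benjamini-Hochberg adjustment over all features at 0.05. It was also run on simulated data, and the outcome is not given here. Features were counted with Python 3.11.15 (numpy 2.4.6, pandas 2.3.3).

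Every member was named. Full values were given for low and intermediate bodies, for called members and for the 3 largest differences of each comparison, and SOA and IV values for Ezh1 and Ehmt1, chosen after their values were seen because their libraries did not overlap. Alternatives were a plain likelihood-ratio test, no moderation, limma on percentages, only the groups compared in the fit, other call minimums, reference CpGs only, positions with at least 3 calls, no transcript starts, thinning, depth subsets, the replicate number as a block, and each library left out. The classes without IV1, and each library left out away from transcript starts, were added once the values were known. Depth was 5218053 to 23065411 calls. The intervals take calls as independent, so they cover counting error only.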

Additional observations from a re-analysis of the deposited data

Results flagged for a closer look

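In IFC, the Kdm5b gene body of IFC2 read 37.76%, while the other 3 libraries read 59.2% to 61.67%. In SO, the Suv39h2 gene body of SO2 read 83.33%, while the other 4 libraries read 52.17% to 58.74%. Both were singled out because the gap to the nearest library of the group exceeded Dixon's 95% critical value for the group size. In all, 50 groups of values were checked, of which 2 were marked, and chance alone marks about 1 in 20 groups. IFC2 held 196 calls in Kdm5b and SO2 48 calls in Suv39h2.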

How the results depend on the processing

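Calls of members depended on how the spread between libraries was treated. For gene bodies, a plain likelihood-ratio test called 14 members between IFC and SO, 15 between SO and SOA, 14 between SOA and IV and 18 between IFC and SOA, and for tiles it called 11, 29, 15 and 25, where 4.38%, 8.81%, 6.38% and 11% of all tiles were called, since it takes calls as independent. The call of Setd1a for SO vs SOA fell to 0 members without moderation, with limma on percentages, with positions of at least 3 calls, after thinning, without transcript starts, and in libraries under 10000000 calls, although the difference there, -17.8 points, was no smaller. In deeper libraries, with 1 SOA library, its difference of -15.4 points has no test. The count ranged from 0 to 1 with each library left out (0 without SO2, SO4, SOA1 or SOA4). For IFC vs SOA 1 member was called without transcript starts. With the starts kept and a library left out, 0 to 1 were called (1 without IFC1 or IFC2). With the starts removed and also 1 library left out, 0 to 1 members were called for IFC vs SOA (0 without IFC1, IFC2, IFC3 or SOA4). In these last settings, chosen after seeing the data, 0 to 1 were called for SO vs SOA (1 without SOA1) and 0 in the other comparisons. The tiles called fell to 0 without moderation and with limma on percentages in both SO vs SOA and IFC vs SOA. With a library left out, member tiles called for SO vs SOA ranged from 0 to 2, for IFC vs SOA from 0 to 3, and for IFC vs SO and SOA vs IV from 0 to 1, and without SOA4, the deepest library, they were 0 in SO vs SOA and 0 in IFC vs SOA. They were 1 without IFC1 for IFC vs SO and 1 without IV2 for SOA vs IV. Limits of 25% and 75% put 16 members in the intermediate class. The Kdm1a difference for IFC vs SO turned to -0.388 points without transcript starts, and that of Suv39h2 for SOA vs IV to -3.07 points in libraries of at least 10000000 calls, where 1 SOA library remained. Prdm9 for SOA vs IV turned to -1.21 points without transcript starts and to -2.88 points in the same deeper libraries, and Smyd2 for IFC vs SOA to -2.98 points with positions of at least 3 calls. The causes were not tested.

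Setd1a kept its call for SO vs SOA in 11 of the 20 settings with at least 2 libraries in each group, and the 5 called tile differences kept theirs in 41 of 62. For CpG-dense regions, 0 member regions were called with limma on percentages, with windows of 50 CpGs within 1000 bp, and with each library left out.

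The replicate number did not pair the samples: the correlation of deviations from group means had a median of 0.00894 for 21 pairs with the same number and of -0.00398 for 74 pairs with other numbers. With the replicate number as a block, 0, 1, 0 and 0 member bodies were called, with an adjusted p of 0.0425 for Setd1a in SO vs SOA, and no call changed. Depth limits single libraries, where a member held as few as 22 calls.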
